A study of Mus musculus with 9 samples.

Results

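The 10 genes described here, Acr, Acrv1, Acrbp, Spaca1, Spaca3, Spaca4, Spaca7, Zpbp, Zpbp2 and Izumo1, encode proteins of the sperm acrosome or of the sperm surface that meets the egg. They were taken by gene symbol from a table of 22337 genes, and all 10 were found. The RNA came from whole testes of 9 mice at 3 weeks of age, with 3 wild-type mice, 3 heterozygous for the R264W allele of Piwil4 (WT/R264W) and 3 homozygous for it (R264W/R264W). This allele replaces an arginine of PIWIL4, a piRNA-binding protein of male germ cells, by tryptophan, and was made with CRISPR-Cas9 in C57BL/6 zygotes. It is a germline knock-in, so every cell of the testis carries it, and wild-type testes served as controls. The sources used here do not say how many founders the line goes back to, or whether the mice of a genotype came from separate litters, so the tests measure only the spread between these mice.

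The acrosome is a vesicle that grows from the Golgi apparatus over the nucleus of the round spermatid. It holds enzymes and binding proteins that act when the sperm passes the cumulus cells and the zona pellucida, and its membranes carry proteins that later take part in fusion with the egg. At the age sampled the first wave of spermatogenesis is under way, and meiotic spermatocytes give rise to the earliest round spermatids of the mouse's life. Some acrosomal genes, Acr among them, are known to be transcribed already in spermatocytes, whereas Acrv1 is known as a product of round spermatids.

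Sequencing depth was even, with estimated counts summing to between 18.0 and 24.3 M per testis. The position of each testis in the first wave was described by a round spermatid score, the mean log2 CPM (counts scaled to library size) of 15 spermatid genes that include none of the 10 acrosomal genes. The score ran from 0.346 in WT/R264W replicate 3 to 5.95 in wild-type replicate 1, and every genotype spanned a wide range. The means were 2.98 ± 2.65 in wild-type, 2.79 ± 2.31 in WT/R264W and 3.68 ± 1.94 in R264W/R264W testes (SD, n = 3 each). From high to low the order was wild-type 1, R264W/R264W 3, WT/R264W 1, R264W/R264W 2, WT/R264W 2, wild-type 2, R264W/R264W 1, wild-type 3 and WT/R264W 3. Of the score genes, Tnp1, Prm2 and Spem1 had 0 counts in their lowest testis, and Tnp2 and Prm1 had 2. There the log2 value depends on the prior count of 1 added before taking log2. Without Prm1, Prm2, Tnp1 and Tnp2 the score ran from 1.57 to 6.03, with the testes in the same order. Markers of pachytene spermatocytes were high in all testes, with a mean log2 CPM of their 8 genes between 8.40 and 8.78. Piwil4 itself had 18 to 46 counts per testis, which cannot check the genotype because the counts do not separate the alleles. RNA of epididymal genes was present in R264W/R264W replicate 1, where Crisp1 reached 883 counts and the mean log2 CPM of 6 epididymal genes was -0.38. That mean was -1.21 in wild-type replicate 2, -1.60 in WT/R264W replicate 2 and between -3.25 and -1.96 in the others, and 2 of the 6 genes were at 0 in every testis. The mean of 6 skeletal and cardiac muscle genes was -0.50 in R264W/R264W replicate 2, -1.39 in R264W/R264W replicate 3 and between -3.10 and -2.30 in the others. Their part in the results was not tested.

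The acrosomal genes divided into 4 whose level differed little between testes, Acr, Acrbp, Zpbp and Zpbp2, and 6 whose level differed by several fold, Spaca1, Spaca3, Spaca4, Spaca7, Acrv1 and Izumo1. This division was made from the measured values and is a description. Levels below are in FPKM, fragment counts divided by transcript length and library size, which allows genes of different length to be compared.

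Acr encodes acrosin, a serine protease stored in the acrosome as proacrosin. Its level was 109.1, 86.3 and 67.1 FPKM in the wild-type testes, 79.8, 89.5 and 64.8 FPKM in the heterozygotes (WT/R264W) and 75.4, 81.5 and 107.2 FPKM in the homozygotes (R264W/R264W). The highest testis exceeded the lowest by only 1.68-fold, and the ranges of the 3 genotypes overlapped. Acrbp encodes the protein that binds proacrosin and holds it in the acrosomal matrix. It stood at 228.6, 221.0 and 154.8 FPKM in wild-type, 204.0, 239.3 and 143.1 FPKM in WT/R264W and 204.0, 214.7 and 270.1 FPKM in R264W/R264W testes, a span of 1.89-fold. Both genes had their lowest values in WT/R264W replicate 3 and wild-type replicate 3, the testes with the lowest scores.

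Zpbp and Zpbp2 encode a pair of related zona pellucida binding proteins of the acrosomal matrix. Zpbp measured 63.0, 45.2 and 42.7 FPKM in wild-type, 45.7, 49.8 and 42.2 FPKM in WT/R264W and 49.4, 52.4 and 53.9 FPKM in R264W/R264W testes. Zpbp2 measured 242.0, 215.0 and 188.8 FPKM in wild-type, 192.5, 225.2 and 179.3 FPKM in WT/R264W and 219.7, 205.1 and 237.5 FPKM in R264W/R264W testes. These were the most even genes of the 10, with spans of 1.49-fold for Zpbp and 1.35-fold for Zpbp2. Zpbp2 and Acrbp held the highest and second-highest level in every testis, and Acr was always next.

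Izumo1 encodes the sperm membrane protein that binds the egg receptor JUNO before fusion. It measured 19.5, 3.50 and 1.55 FPKM in wild-type, 9.07, 5.60 and 0.860 FPKM in WT/R264W and 3.30, 5.15 and 16.7 FPKM in R264W/R264W testes. It was the lowest of the 10 genes in all 9 testes and also the most variable, with 22.6-fold between its highest and lowest value. Behind the lowest value stood 24 estimated counts, the smallest count of any of the 10 genes in any testis.

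Acrv1 encodes SP-10, a protein of the acrosomal matrix. It measured 82.1, 18.0 and 8.76 FPKM in wild-type, 56.7, 33.02 and 6.32 FPKM in WT/R264W and 16.3, 31.3 and 73.2 FPKM in R264W/R264W testes. Spaca1 encodes a protein of the inner acrosomal membrane that is needed for the shape of the acrosome. Its values were 90.4, 24.6 and 15.5 FPKM in wild-type, 60.6, 44.8 and 13.3 FPKM in WT/R264W and 23.5, 42.9 and 84.9 FPKM in R264W/R264W testes. In both genes 1 wild-type and 1 R264W/R264W testis lay far above the others of their genotype, and the lowest value of all was that of WT/R264W replicate 3. The span was 13.0-fold for Acrv1 and 6.79-fold for Spaca1.

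Spaca3 encodes a lysozyme-like protein of the acrosome, and Spaca4 a surface protein with a lipid anchor that takes part in zona binding. Spaca3 measured 52.0, 13.0 and 5.99 FPKM in wild-type, 31.8, 24.2 and 3.33 FPKM in WT/R264W and 11.5, 20.9 and 53.1 FPKM in R264W/R264W testes. Spaca4 measured 51.4, 12.4 and 4.30 FPKM in wild-type, 27.7, 24.4 and 4.09 FPKM in WT/R264W and 12.2, 20.1 and 47.7 FPKM in R264W/R264W testes. Spaca7, an acrosomal matrix gene, measured 31.8, 8.82 and 5.04 FPKM in wild-type, 27.3, 15.02 and 3.31 FPKM in WT/R264W and 9.20, 14.6 and 32.98 FPKM in R264W/R264W testes. All 3 genes were lowest in WT/R264W replicate 3 and highest in wild-type replicate 1 or R264W/R264W replicate 3, with spans of 16.0-fold, 12.6-fold and 9.96-fold.

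**Figure D1:**
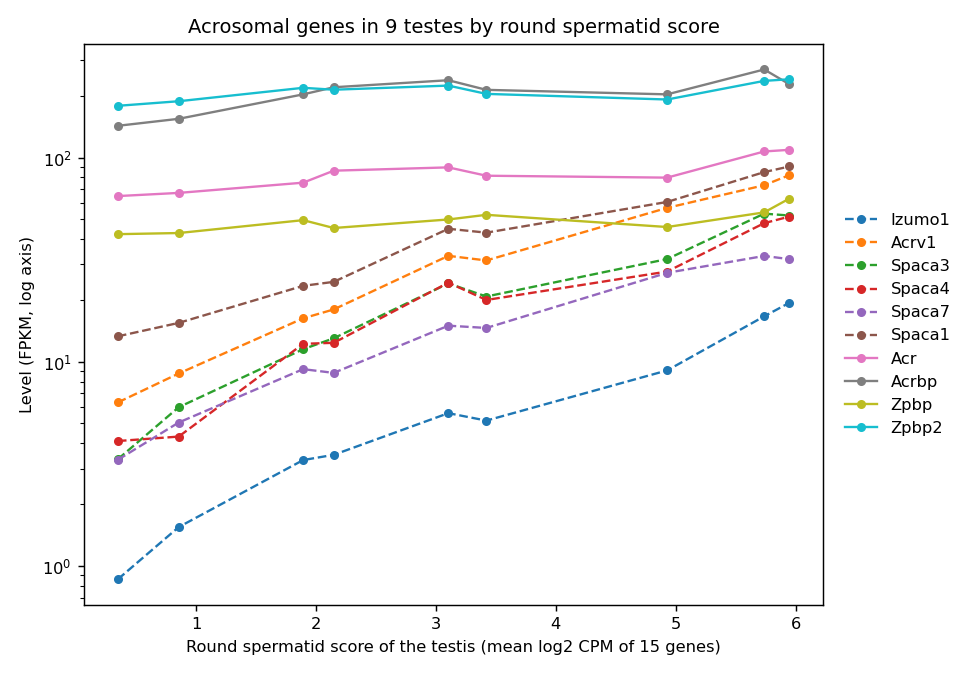
Level of each of the 10 acrosomal genes (FPKM, log axis) in the 9 testes against the round spermatid score of the testis (mean log2 CPM of 15 genes). Solid lines join the values of Acr, Acrbp, Zpbp and Zpbp2, which stay within 1.89-fold, and dashed lines those of the other genes, which differ by 6.79-fold to 22.6-fold between the lowest and the highest testis.

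How each gene went with the score was expressed as a slope, in log2 CPM per unit of score, from a line with genotype terms through all 9 testes. The slopes of the 6 variable genes were 0.72 ± 0.05 for Izumo1, 0.66 ± 0.04 for Acrv1, 0.65 ± 0.07 for Spaca3, 0.64 ± 0.08 for Spaca4, 0.58 ± 0.04 for Spaca7 and 0.51 ± 0.03 for Spaca1 (± standard error). The other 4 had slopes of 0.14 ± 0.03 for Acr, 0.12 ± 0.03 for Acrbp, 0.09 ± 0.02 for Zpbp and 0.07 ± 0.02 for Zpbp2. With each testis left out in turn the slopes of the steep genes lay between 0.50 and 0.74 and those of the flat genes between 0.05 and 0.17. That of Zpbp moved most for its size, to 0.05 without wild-type replicate 1. A unit of score thus went with a 1.64-fold higher level of Izumo1 and a 1.05-fold higher level of Zpbp2. Between Spaca1 and Acr lay a gap of 0.37 (standard error 0.03), the largest between neighbours in the order of slopes. Among the steep genes the step from Izumo1 to Acrv1 was 0.06 (standard error 0.03), more than 2 standard errors. All other neighbours in this order, such as Acrv1 and Spaca3 or Acr and Acrbp, lay less than 2 standard errors apart. The genes were put in order by these same slopes, so the gaps and their errors do not test the division.

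Over all 15771 genes fitted in the same way the median slope was -0.01, and 673 genes (4.27%) had a slope above 0.5. All 6 steep acrosomal genes lay in that range, while Acr had a slope exceeded by 11.9% of genes and Zpbp2 one exceeded by 20.3%. The score and the acrosomal genes were measured in the same libraries, so these slopes describe how closely they went together and carry no test. Which cells held the RNA was not measured. The score genes themselves had slopes from 0.15, for Dnajb3, to 1.75, for Prm2. In whole-testis RNA a smaller number of spermatids and less RNA per spermatid cannot be told apart.

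The make-up of the summed RNA of the 10 genes followed the same order. The steep and flat genes were divided by these same values, so the shares and ratios below restate that division and add no support to it. The 6 steep genes supplied 33.7% of the summed FPKM of the 10 genes in wild-type replicate 1, which had the highest score. Their share fell with the score and reached 6.78% in WT/R264W replicate 3. It was level at 19.6% in R264W/R264W replicate 2 and WT/R264W replicate 2. Ratios between flat genes varied least. The log2 ratio of Acr to Acrbp had an SD of 0.09 over the 9 testes, the smallest of all 45 pairs, and Zpbp to Zpbp2 came next with 0.10. Pairs of steep genes had SDs from 0.17, for Acrv1 and Spaca3, to 0.50, for Spaca1 and Izumo1, and pairs of a steep and a flat gene from 0.77 to 1.35.

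**Figure D2:**
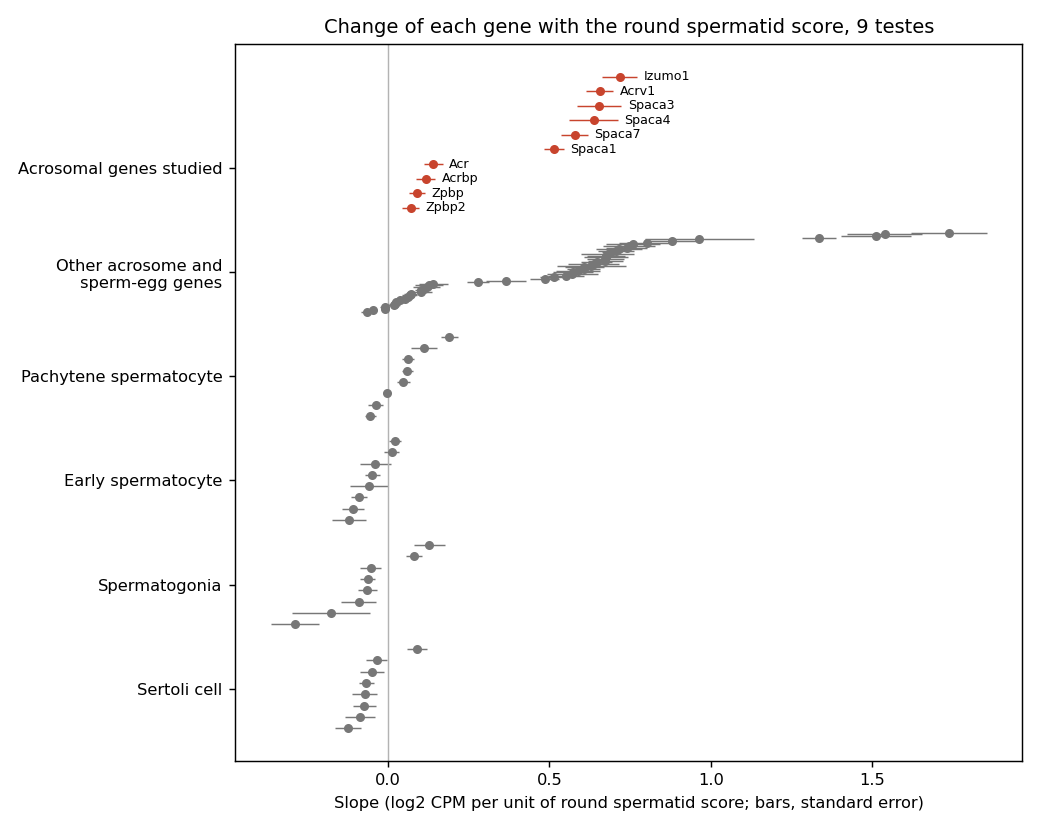
Slope of each gene on the round spermatid score over 9 testes (log2 CPM per unit of score; points are genes, bars are standard errors), for the 10 acrosomal genes, 49 other acrosome and sperm-egg genes and markers of 4 other testis cell types. The 10 acrosomal genes leave a gap between 0.14 and 0.51, and the markers of spermatocytes, spermatogonia and Sertoli cells stay between -0.29 and 0.19.

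Reference promoter sequence was searched to see what the steep and the flat genes share around their start sites. Windows of 300 bases, 250 before to 50 after the start, came from RefSeq (GRCm38.p6) for 9 of the 10 genes, Acr being the exception. Motifs were looked for on both strands. The full cAMP response element, TGACGTCA, is bound by CREM, a transcription factor of round spermatids, and its core is TGACG, which on the opposite strand reads CGTCA. Each full element holds 2 overlapping cores. The full element was in 1.79% of all 32851 windows and, of the 9 windowed genes, in that of Izumo1, the steepest of the genes. The core was in 20.8% of all windows and in those of Izumo1, Spaca1, Spaca3, Acrbp and Zpbp2, which include steep and flat genes. The windows of Izumo1 (chr7:45621561-45621860, plus strand), Spaca1 (chr4:34050016-34050315, minus strand) and Acrbp (chr6:125049677-125049976, plus strand) are printed 5′ to 3′ with the element or core in capitals, to set steep genes beside a flat one.
Izumo1: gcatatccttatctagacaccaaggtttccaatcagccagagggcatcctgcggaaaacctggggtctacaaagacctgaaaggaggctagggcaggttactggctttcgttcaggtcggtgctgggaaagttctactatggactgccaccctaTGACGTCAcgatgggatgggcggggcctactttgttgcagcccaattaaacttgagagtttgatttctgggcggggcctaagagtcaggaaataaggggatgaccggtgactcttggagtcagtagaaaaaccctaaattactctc
Spaca1: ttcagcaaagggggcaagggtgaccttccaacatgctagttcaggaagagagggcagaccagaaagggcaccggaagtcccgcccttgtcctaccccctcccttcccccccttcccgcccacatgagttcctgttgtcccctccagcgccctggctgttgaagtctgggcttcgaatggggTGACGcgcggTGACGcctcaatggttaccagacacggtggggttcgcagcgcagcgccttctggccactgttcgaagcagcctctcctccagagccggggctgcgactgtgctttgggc
Acrbp: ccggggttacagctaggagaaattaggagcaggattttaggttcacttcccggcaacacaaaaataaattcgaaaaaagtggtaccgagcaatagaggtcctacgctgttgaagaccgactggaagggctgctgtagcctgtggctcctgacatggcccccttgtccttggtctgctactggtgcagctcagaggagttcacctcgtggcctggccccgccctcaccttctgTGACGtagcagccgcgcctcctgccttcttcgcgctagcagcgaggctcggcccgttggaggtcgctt

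The element of Izumo1 began 96 bases before the start, the cores of Spaca1 69 and 59 bases before it and that of Acrbp 18 bases before it. These are RefSeq starts, and a further RefSeq window of Spaca1 placed its cores 67 and 57 bases before the start. In GENCODE, Spaca1 (minus strand) begins at 34050191 and Acrbp (plus strand) at 125049689. Both lie upstream of the RefSeq starts, so these cores fall inside the GENCODE spans. A hexamer of GT repeats, GTGTGT, which on the opposite strand reads ACACAC, was in 17.4% of all windows and in those of Acrv1 and Spaca7. The window of Acrv1 (chr9:36692970-36693269, plus strand) held 3 copies, in capitals, and is shown because Acrv1 is a standard gene of the round spermatid.
Acrv1: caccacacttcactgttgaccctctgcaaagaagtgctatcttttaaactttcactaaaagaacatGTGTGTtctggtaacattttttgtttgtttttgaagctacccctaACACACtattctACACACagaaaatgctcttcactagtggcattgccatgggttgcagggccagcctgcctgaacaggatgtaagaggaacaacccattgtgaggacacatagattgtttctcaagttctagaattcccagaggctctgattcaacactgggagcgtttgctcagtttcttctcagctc

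The GC box GGGCGG was in 35.7% of all windows and in 5 of the 9, those of Izumo1, Spaca1, Spaca4, Acrbp and Zpbp2. The CCAAT box CCAAT was in 37.4% of all windows and in those of Izumo1, Spaca4 and Zpbp. The TATA box TATAAA was in 13.6% and in that of Spaca7, and the RFX core GTTGCC was in 12.5% and in that of Acrbp. The Myb core TAACNG, found in 23.3% of all windows, was in none of the 9 (0). No motif searched was in all steep genes and absent from all flat ones. A match describes the letters of the reference only.

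The genes lie on 7 chromosomes in the GENCODE annotation of GRCm38, and most are short. Spaca4 (chr7:45725107-45725813, minus strand) has a single exon, whereas Zpbp (chr11:11279626-11462408, minus strand) spans 182783 bases with 8 exons. Izumo1 (chr7:45621811-45628823, plus strand) has 10 exons, shares part of its span with Rasip1 on the same strand and lies on the same chromosome as Spaca4. Spaca4 overlaps Fam83e, Spaca7 overlaps D630011A20Rik, and Acrbp and Zpbp overlap genes on both strands. Whether the counting used strand is not given in the sources used here, so the levels of these 5 genes may include reads of their neighbours.

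Other genes of the acrosome and of sperm-egg contact showed both kinds of behaviour. Of a list of 50 such genes, 49 were found in the table. Of these, 18 (36.7%) had a slope no higher than that of Acr, 3 (6.12%) lay in the gap between Acr and Spaca1, 18 (36.7%) lay between Spaca1 and Izumo1, and 10 (20.4%) exceeded Izumo1. The genes at or below the slope of Acr had a median level of 97.5 FPKM, and those between Spaca1 and Izumo1 one of 12.4 FPKM. The 4 highest genes of the list were all flat. Crisp2, a cysteine-rich secretory protein of the acrosome, had a mean of 946.5 FPKM and a slope of 0.07. Clgn, the calmegin chaperone of the endoplasmic reticulum, had 403.3 FPKM and 0.02, Tex101 had 369.8 FPKM and -0.07, and the acrosomal protease inhibitor Spink2 had 353.6 FPKM and 0.05.

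By role, the genes of Golgi and vesicle traffic that build the acrosome (Gopc, Pick1, Agfg1, Smap2 and Spata16) were flat, 5 of 5, with slopes from -0.05 to 0.07. The 5 genes needed for gamete fusion besides Izumo1 (Spaca6, Tmem95, Llcfc1, Dcst1 and Dcst2) were steep, 5 of 5, with slopes from 0.67 to 0.96. The highest slope, that of Spaca6, had a standard error of 0.17. Spaca6 had 0 counts in its lowest testis and Tmem95 had 6. The hyaluronidases Spam1 and Hyal5, which act on the cumulus matrix, had slopes of 0.57 and 0.88. The lysozyme-like relatives of Spaca3 (Lyzl1, Lyzl4 and Lyzl6) had slopes from 0.61 to 0.76, close to the 0.65 of Spaca3. The 7 genes of the perinuclear theca had slopes from 0.28 to 1.34, and 0 of them were at or below Acr. Other families were divided. Of the relatives of Izumo1, Izumo2 and Izumo3 had slopes of 0.69 and 0.59 but Izumo4 one of 0.14. Of the chaperones, Clgn was flat and Calr3 (0.63) and Pdilt (0.74) were steep. The 3 serine proteases and relatives ran from 0.13 for Prss21 to 1.54 for Prss55. Cabs1, Prss55, Prss37 and Ccin were the steepest, with slopes of 1.74, 1.54, 1.51 and 1.34, and had between 0 and 5 counts in their lowest testis. The roles were assigned with these values known, so the counts describe the list.

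Markers of other germ cells and of Sertoli cells had slopes of both signs, all smaller in size than those of the steep acrosomal genes. They ran from -0.06 to 0.19 for pachytene spermatocyte genes, with Pgk2, a glycolytic enzyme of meiotic and later germ cells, at 0.19 ± 0.03 (standard error). Early spermatocyte genes ran from -0.12 to 0.02, spermatogonial genes from -0.29 to 0.13 and Sertoli cell genes from -0.12 to 0.09. The median slope was 0.05 for 8 pachytene spermatocyte genes, -0.05 for 8 early spermatocyte genes, -0.06 for 8 spermatogonial genes and -0.07 for 8 Sertoli cell genes. Leydig cell genes had a median slope of 0.17 and ranged from 0.03 to 0.67, the latter for Cyp17a1, an enzyme of androgen synthesis. Their mean log2 CPM lay between 4.38 and 5.70 in wild-type, between 4.30 and 5.05 in WT/R264W and between 4.87 and 5.78 in R264W/R264W testes, with all 7 genes detected in every testis, and whether this bears on the acrosomal genes was not tested. Of 6 peritubular cell genes Actg2, a smooth muscle actin, had a slope of 0.62, and the median was -0.03. Macrophage, endothelial, muscle and epididymal lists had median slopes of 0.01, -0.02, 0.02 and -0.08.

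The 5 genes whose centred log2 CPM over the 9 testes lay nearest to the mean of the 10 acrosomal genes, out of 14464 genes with a mean of at least 1 CPM, were Klf4, Rfx1, Stpg1, Erich6 and Atp10a. Their root mean square differences were 0.07, 0.08, 0.08, 0.09 and 0.09, against 0.21 to 0.68 for the acrosomal genes themselves. Klf4 and Rfx1 encode transcription factors. The slopes of the 5 genes, from 0.39 for Klf4 to 0.44 for Stpg1, fell between those of the flat and the steep acrosomal genes. Likeness was measured to a mean over flat and steep genes, so slopes in between follow from that choice. None of the 10 acrosomal genes lay as near to that mean.

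The comparison of genotypes asked whether the R264W allele went with another level of these genes. In no comparison did an acrosomal gene separate the genotypes, and the values of the 3 testes of each genotype overlapped for all 10 genes in each comparison. Izumo1 had a mean of 8.17 ± 9.82 FPKM in wild-type, 5.18 ± 4.12 FPKM in WT/R264W and 8.38 ± 7.26 FPKM in R264W/R264W testes (SD, n = 3 each). Zpbp2 had means of 215.2 ± 26.6, 199.0 ± 23.6 and 220.7 ± 16.2 FPKM in the same order. For Izumo1 the SD was close to the mean or above it, and for Zpbp2 it was a small part of it.

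**Figure D3:**
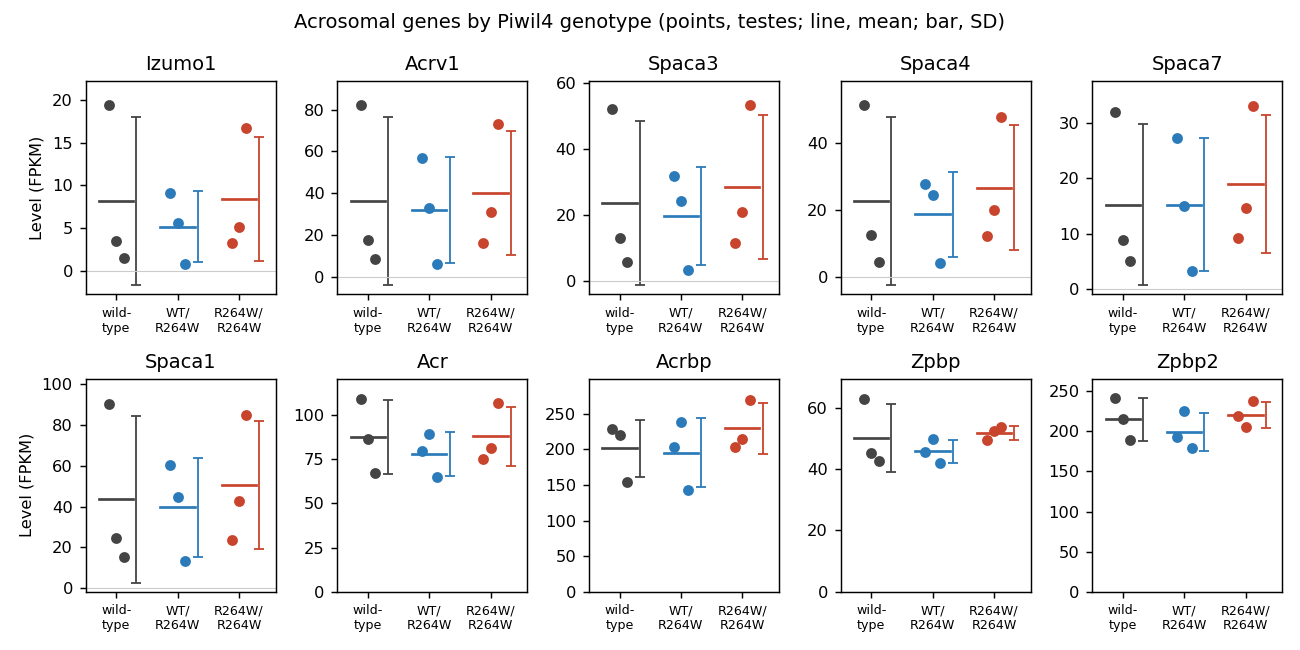
Level of each acrosomal gene (FPKM, linear axes from 0 or below) by Piwil4 genotype, with a point for each of 3 testes, a line at the mean and a bar for ± 1 SD. The genotypes overlap in all 10 genes, and within a genotype the steep genes differ by 3.83-fold to 13.8-fold (CPM), the flat ones by 1.16-fold to 1.86-fold.

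For homozygous against wild-type testes, 0 of the 10 genes passed an adjusted p of 0.05 in edgeR (quasi-likelihood test, Benjamini-Hochberg over 15543 genes), and over all genes the count was also 0 (0%). At an unadjusted p under 0.05 the count was 0 of the 10, against 196 genes (1.26%) in all. DESeq2 called 2 genes at the adjusted threshold, neither of them acrosomal. In 5.58% of all genes the groups did not overlap, and in 0 of the 10. The log2 fold changes of the 10 genes ran from -0.0027 for Izumo1 to 0.28 for Spaca7, with a median of 0.12 beside -0.01 over all genes tested. The standard error was 1.05 for Izumo1 and 0.81 for Spaca7, but 0.15 for Zpbp2, whose log2 fold change was 0.03. Adjusted p from edgeR was 0.9998 for each of the 10. The median of 0.12 turned to -0.46 without R264W/R264W replicate 3 and to 1.45 without wild-type replicate 1, the testes with the highest scores of their genotypes. It also changed sign without wild-type replicate 2 (-0.06) and without wild-type replicate 3 (-0.19). Without R264W/R264W replicate 1 it was 0.45 and without R264W/R264W replicate 2 it was 0.28.

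Between R264W/R264W and WT/R264W testes all 10 log2 fold changes were above 0, from 0.19 for Zpbp2 to 0.74 for Izumo1, with a median of 0.37 beside 0.01 over all 15463 genes. None (0) passed the adjusted or the unadjusted threshold in edgeR, where 0 genes (0%) and 343 genes (2.22%) did in all, and DESeq2 called 6 genes, none of the 10 among them. The groups did not overlap in 7.06% of all genes and in 0 of the 10. Zpbp came nearest, at 0.21 (standard error 0.10, unadjusted p = 0.078, adjusted p = 0.948 from edgeR; exact two-sided permutation test p = 0.2). Izumo1 had a standard error of 0.90 and an adjusted p of 0.948 from edgeR. Without R264W/R264W replicate 3 the median of the 10 was -0.24, and without R264W/R264W replicate 1 it was 0.72. Without WT/R264W replicate 1 it was 0.89, and without WT/R264W replicate 3 it was 0.06.

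Between WT/R264W and wild-type testes all 10 values were below 0, from -0.75 (standard error 1.11) for Izumo1 to -0.09 (standard error 0.91) for Spaca7, and the median was -0.21 beside -0.02 over all 15413 genes. None (0) passed the adjusted or the unadjusted threshold in edgeR, where 0 genes (0%) and 171 genes (1.11%) did in all, and DESeq2 called 0. The groups did not overlap in 5.36% of all genes and in 0 of the 10. The median moved to 1.02 without wild-type replicate 1 and to -0.72 without WT/R264W replicate 1. It was -0.41 without wild-type replicate 2, -0.58 without wild-type replicate 3 and 0.08 without WT/R264W replicate 3. Each comparison shares 3 testes with each of the others, so their directions are not independent. The smallest p that an exact permutation of 3 against 3 testes can give is 0.1, and over the 3 comparisons the lowest for any of the 10 genes was 0.2.

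**Figure D4:**
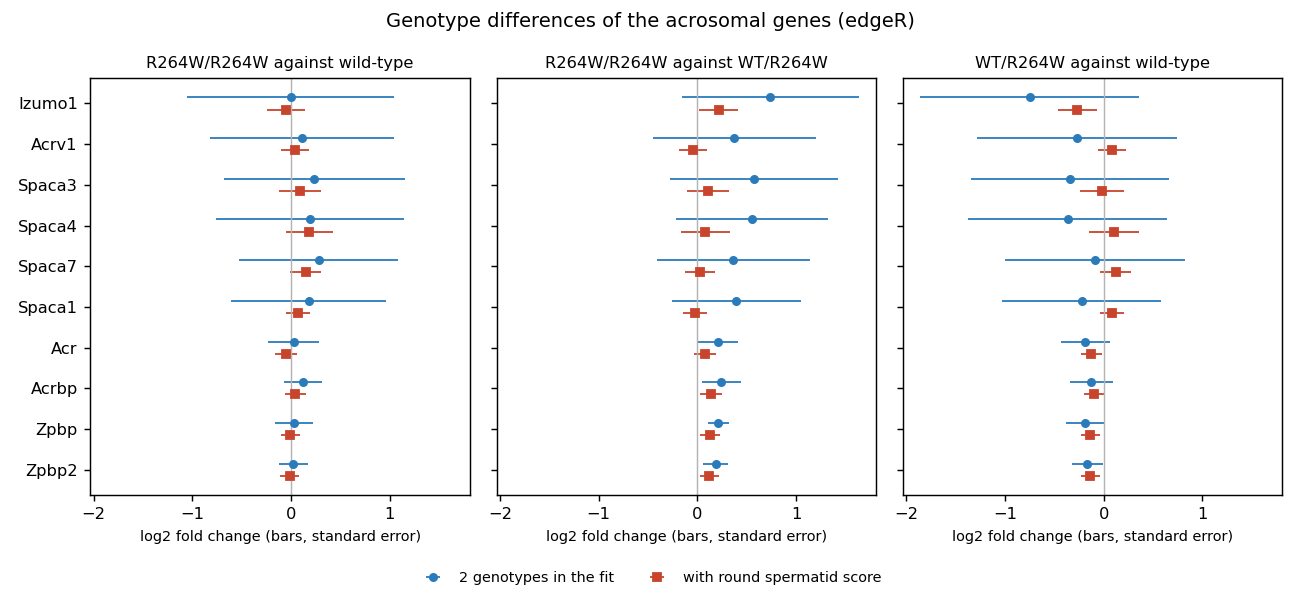
Log2 fold change of each acrosomal gene in the 3 genotype comparisons from edgeR (points, with standard errors as bars), from the 2 genotypes alone and from all 9 testes with the round spermatid score in the fit. With the score the standard errors of the 6 steep genes shrink from between 0.65 and 1.11 to between 0.12 and 0.25, and the values of all 10 genes lie between -0.27 and 0.22.

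When all 9 testes were fitted with the round spermatid score as a covariate, the standard errors of the steep genes went from between 0.65 and 1.11 to between 0.12 and 0.25. Those of the flat genes went from between 0.10 and 0.26 to between 0.10 and 0.11. The medians of the 10 genes were then 0.04 for R264W/R264W against wild-type, 0.10 for R264W/R264W against WT/R264W and -0.05 for WT/R264W against wild-type. The score came from the same libraries, so any difference between genotypes that went with the score is taken out of these values. Whether the allele changed the score was not tested. No acrosomal gene (0 of 10) passed an adjusted or an unadjusted p of 0.05 in edgeR in this fit, in which 0% of genes were called and 2.52%, 3.16% and 3.51% had an unadjusted p under 0.05. The largest values were -0.27 (standard error 0.20) for Izumo1 in WT/R264W against wild-type and 0.22 (standard error 0.20) for the same gene in R264W/R264W against WT/R264W. Spaca1, the most precise of the steep genes, had 0.07 (standard error 0.12), -0.02 (standard error 0.12) and 0.09 (standard error 0.12) in the 3 comparisons. A p above the threshold does not show that the levels were equal.

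Of the 49 other acrosome and sperm-egg genes, 0 passed the adjusted threshold in edgeR in the comparisons in which they were tested, with or without the score. All 49 were tested except in WT/R264W against wild-type without the score, where 48 were. At an unadjusted p under 0.05 there was 1 gene without the score, Dpy19l2, a membrane protein that anchors the acrosome to the nucleus, at 0.24 on the log2 scale (standard error 0.09, edgeR adjusted p = 0.948) in R264W/R264W against WT/R264W. With the score there was also 1, Tex101, at 0.21 (standard error 0.08, edgeR adjusted p = 0.968) in WT/R264W against wild-type. Over all genes the share at that threshold was 2.22% in the former comparison and 3.51% in the latter, so 1 of 49 is no more than the background. Both genes were named after their values were seen. The medians of the list were 0.03, 0.34 and -0.26 in the 3 comparisons and 0.02, 0.06 and 0.0018 with the score in the fit.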

How the data were processed

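Whole-testis RNA from 9 mice was sequenced as paired reads. Per the labels and methods, the authors filtered reads with fastp (version 0.18.0) and assembled them with StringTie (version 1.3.1). Per gene and testis the deposited table gives FPKM and an estimated count, both made by the authors. Of the counts 89.2% were whole, and the rest were rounded here. The submitters' notes name mm39. The aligner, annotation and counting tool are not given in the sources used here. The table holds no coordinates, so gene models came from GENCODE (GRCm38) and promoter windows from RefSeq (GRCm38.p6).

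Genotypes came from the labels. Each pair was fitted in R (version 4.3.3) with edgeR (version 4.0.16), using filterByExpr, TMM scaling and a two-sided quasi-likelihood test with Benjamini-Hochberg adjustment. All 10 genes passed the filter. Alternatives used DESeq2 (version 1.42.0), limma (version 3.58.1) on log2 FPKM with a pseudocount of 0.1 or 1 where the mean FPKM reached 0.5, other filters, all 9 testes in 1 fit, the score as a covariate, a replicate block and each testis left out. Slopes used log2 CPM with a prior count of 1. Likeness was the root mean square difference of centred log2 CPM. A count of 0 allows up to 3 counts, or between 0.122 and 0.171 CPM, which covers counting error only.

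The 10 genes, the gene and marker lists and the roles were chosen with earlier results of these data known. The text names all 10 genes, the 4 highest of the other acrosome genes, the 5 most alike genes and Piwil4. Other genes were named after their values were seen.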

Additional observations from a re-analysis of the deposited data

How the results depend on the processing

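No acrosomal gene (0) had an adjusted p under 0.05 in edgeR, DESeq2 or limma in any of the 480 values computed, the lowest being 0.625. An unadjusted p under 0.05 occurred 4 times, each in edgeR with 1 testis left out. Without wild-type replicate 1 these were Spaca7 and Zpbp, 2 of the 10, in R264W/R264W against wild-type. In that fit 7.44% of all genes had such a p. Without WT/R264W replicate 2 they were Zpbp and Zpbp2, 2 of the 10, in R264W/R264W against WT/R264W. There the share over all genes was 7.24%. Of 670 values, 570 were counted as kept. For the fold change of a gene, this meant the same sign and the same call at the adjusted threshold, whatever its size. As no acrosomal gene was called, only the sign counted there. Depth limits Izumo1 most, with 24 counts in its lowest testis.

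R264W/R264W against wild-type: DESeq2 called 2 genes where edgeR called 0. The median of the 10 genes was 0.45 with limma on log2(FPKM + 0.1) and 0.38 on log2(FPKM + 1). Izumo1 turned to 0.0022 with DESeq2, 0.46 and 0.33 with limma and 0.00075 with at least 10 counts in every library. With the score, Acr, Zpbp and Zpbp2 turned to -0.051, -0.0072 and -0.014.

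R264W/R264W against WT/R264W: DESeq2 called 6 genes. With the score the median was 0.10, Acrv1 -0.041 and Spaca1 -0.020.

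WT/R264W against wild-type: with limma on log2(FPKM + 0.1), Spaca1 turned to 0.023 and Spaca4 to 0.0036, and on log2(FPKM + 1) Spaca1 to 0.021 and Spaca7 to 0.0013. With the score, Acrv1, Spaca1, Spaca4 and Spaca7 turned to 0.085, 0.088, 0.10 and 0.12. The cause was not tested.

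With each testis left out in turn, 0 genes were called in each comparison. In R264W/R264W against wild-type the median ran from -0.46 to 1.45 and, among genes that changed sign, Acr -0.18 to 0.29, Acrbp -0.036 to 0.27, Acrv1 -0.70 to 1.65, Izumo1 -1.05 to 1.79, Spaca1 -0.48 to 1.39, Spaca3 -0.64 to 1.64, Spaca4 -0.59 to 1.73, Spaca7 -0.44 to 1.51, Zpbp -0.095 to 0.28, Zpbp2 -0.083 to 0.17. In R264W/R264W against WT/R264W the median ran from -0.24 to 0.89 and, among genes that changed sign, Acrv1 -0.44 to 1.08, Izumo1 -0.31 to 1.42, Spaca1 -0.26 to 0.84, Spaca3 -0.30 to 1.09, Spaca4 -0.23 to 0.94, Spaca7 -0.36 to 1.10. There Acr ran from 0.0036 to 0.34, Acrbp from 0.068 to 0.39, Zpbp from 0.14 to 0.29 and Zpbp2 from 0.093 to 0.30 without a change of sign. In WT/R264W against wild-type the median ran from -0.72 to 1.02 and, among genes that changed sign, Acr -0.38 to 0.078, Acrbp -0.28 to 0.046, Acrv1 -0.97 to 1.28, Izumo1 -1.43 to 1.06, Spaca1 -0.67 to 0.99, Spaca3 -0.87 to 1.07, Spaca4 -0.86 to 1.18, Spaca7 -0.82 to 1.14, Zpbp -0.32 to 0.068, while Zpbp2 ran from -0.28 to -0.014. The extremes came without wild-type replicate 1 or 3, any WT/R264W replicate, or R264W/R264W replicate 3.

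Slopes per unit of a pachytene spermatocyte score, which spans a narrower range, were 2.61 for Acr, 9.64 for Acrv1, 2.23 for Acrbp, 7.65 for Spaca1, 10.16 for Spaca3, 10.28 for Spaca4, 8.33 for Spaca7, 1.497 for Zpbp, 1.49 for Zpbp2 and 10.90 for Izumo1. Without the 4 protamine and transition protein genes, on log2(FPKM + 0.1) or without genotype terms, the slopes moved by less than their residual SD. That SD is the scatter of log2 CPM about the line, not an error of the slope. It was 0.17, 0.17, 0.14 and 0.14 for Acr, Acrbp, Zpbp and Zpbp2, larger than their slopes. A loss of these slopes would have passed, so this does not show that they held.

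Whether replicate numbers pair the testes is not given in the sources used here, and correlations between testes cannot settle it. Of 9 same-number pairs, 2 had correlations of their deviations over 0.1, and the range was -0.81 to 0.86. These 2 were wild-type 1 with WT/R264W 1 (0.79) and wild-type 3 with WT/R264W 3 (0.86). Testes of unlike number also reached such values, as wild-type 1 with R264W/R264W 3 (0.86). With a replicate block 0 genes were called in each comparison, the medians were 0.49, 0.38 and -0.14, and Izumo1 turned to 0.48 in R264W/R264W against wild-type. The block lowered the standard error of Izumo1 from 1.11 to 0.39 in WT/R264W against wild-type. It raised that error from 1.05 to 1.46 in R264W/R264W against wild-type and from 0.90 to 1.36 in R264W/R264W against WT/R264W.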
